A study of Mus musculus with 6 samples.

Results

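The genes described here are 34 mouse genes of the epithelial cell junctions, chosen by name from the 52249 genes of the deposited count table; all 34 were found in it by symbol. They comprise 17 tight junction and polarity genes, 7 adherens junction and adhesion genes and 10 desmosome genes. The 6 libraries were made from mouse intestinal organoids, cultures of intestinal epithelium, by a method that sequences the 3′ ends of mRNA. All of the organoids carried the Apc knockout, so that the controls lacked this WNT pathway suppressor too. The 3 libraries labelled Apc-knockout are called controls, and the 3 labelled Apc-knockout_IGF2BP3 OE, in which the RNA-binding protein IGF2BP3 was overexpressed, are called OE-labelled (OE for overexpression). The intestinal region, the Apc allele, the age of the mice, the promoter that drives IGF2BP3 and the number of lines or clones are not given in the sources used here. The study asks how IGF2BP3 acts in Apc-deficient intestinal tumour cells.

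Tight junctions seal the space between epithelial cells: claudins form the strands and set which ions and water pass, occludin-type proteins join them, and ZO scaffolds tie them to actin. Below them, adherens junctions hold cells together through E-cadherin and its catenins, and desmosomes anchor keratin filaments through desmosomal cadherins, plakoglobin, plakophilins and desmoplakin. In the intestine these structures decide how tight or leaky the lining is, and claudin composition differs between crypt and villus. The catenins also link adhesion to WNT signalling, because beta-catenin serves both.

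Total counts ran from 2180116 to 2519917 per library, and 1 count was worth 0.393 to 0.469 CPM, a count scaled by library total and TMM factor. The overexpressed gene gave no check of the labels, since each group had 1, 0 and 0 counts of mouse Igf2bp3, all under the floor of 3 counts. The spread between libraries was unequal: the common biological coefficient of variation was 3.15% among controls and 17.2% among OE-labelled libraries. One library stood apart on the low side. In OE-labelled replicate 1, 255 of 8779 genes (2.9%; genes with a group mean of at least 10 CPM) lay over 2-fold below both other OE-labelled libraries, against 10 and 6 genes for replicates 2 and 3 and 3 to 5 genes for each control library. Among the junction genes this concerned Cldn23, Ctnnd1 and Prkci, and results that rest on this library are given with and without it. On the high side, 34 genes lay over 2-fold above both other OE-labelled libraries in replicate 3, none of them a junction gene. Every other library had 0 to 2 such genes relative to its own group. Library names put the controls in one series and the OE-labelled libraries in another, so that group and library series cannot be told apart. The labels do not say that replicates were separate cultures, so p-values measure the spread between these libraries, which may be technical.

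The cell type of the libraries was examined through marker genes. Of 7 epithelial markers, 6 were tested, and 5 (Krt8, Krt18, Krt19, Vil1 and Lgals4) were higher in OE-labelled libraries; the intestinal transcription factor gene Cdx1 had 0 counts in all 6. The summed epithelial level was 2819 to 2958 CPM in controls and 4651 to 5017 CPM under the OE label. Fibroblast markers summed to at most 2.82 CPM in any library, with Col1a2, Col3a1, Dcn, Lum, Pdgfrb and Thy1 at 0 counts in every library, and endothelial and smooth muscle markers to at most 0.922 CPM. Immune markers summed to 13.6 to 20.3 CPM, nearly all of it Cd68, while Cd3e, Cd79a, Lyz2 and Adgre1 were at 0 counts. The rise of the epithelial markers accompanied every result below, and its part in them was not tested. In these bulk libraries, fewer cells of a type and less RNA per cell cannot be told apart.

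The junction genes did not move in one direction. Of 33 genes tested (Cldn15 was not, with a single count in all 6 libraries together), 8 rose and 7 fell under the OE label at an adjusted p below 0.05. That is 45.5% of the genes tested, beside 29.2% of all 10687 genes tested (16.5% higher and 12.7% lower). The junction genes were chosen with earlier results of these data known, and the part of that choice in this share was not tested. Their median log2 fold change was 0.075, beside 0.041 for all genes. The higher genes were Cldn2, Cldn3, Cldn4, Pard3, Cdh17, Jup, Pkp3 and Perp; the lower genes were Cldn7, Ocln, Tjp1, Pard6b, Ctnna1, Dsg2 and Ppl. Both directions occurred within claudins, within polarity genes and within the desmosomal plaque. Control and OE-labelled CPM ranges lay apart for 18 of the 33 genes, beside 45.7% of all genes tested; these were the 15 called genes with Marveld2, Cgn and Prkci.

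**Figure D1:**
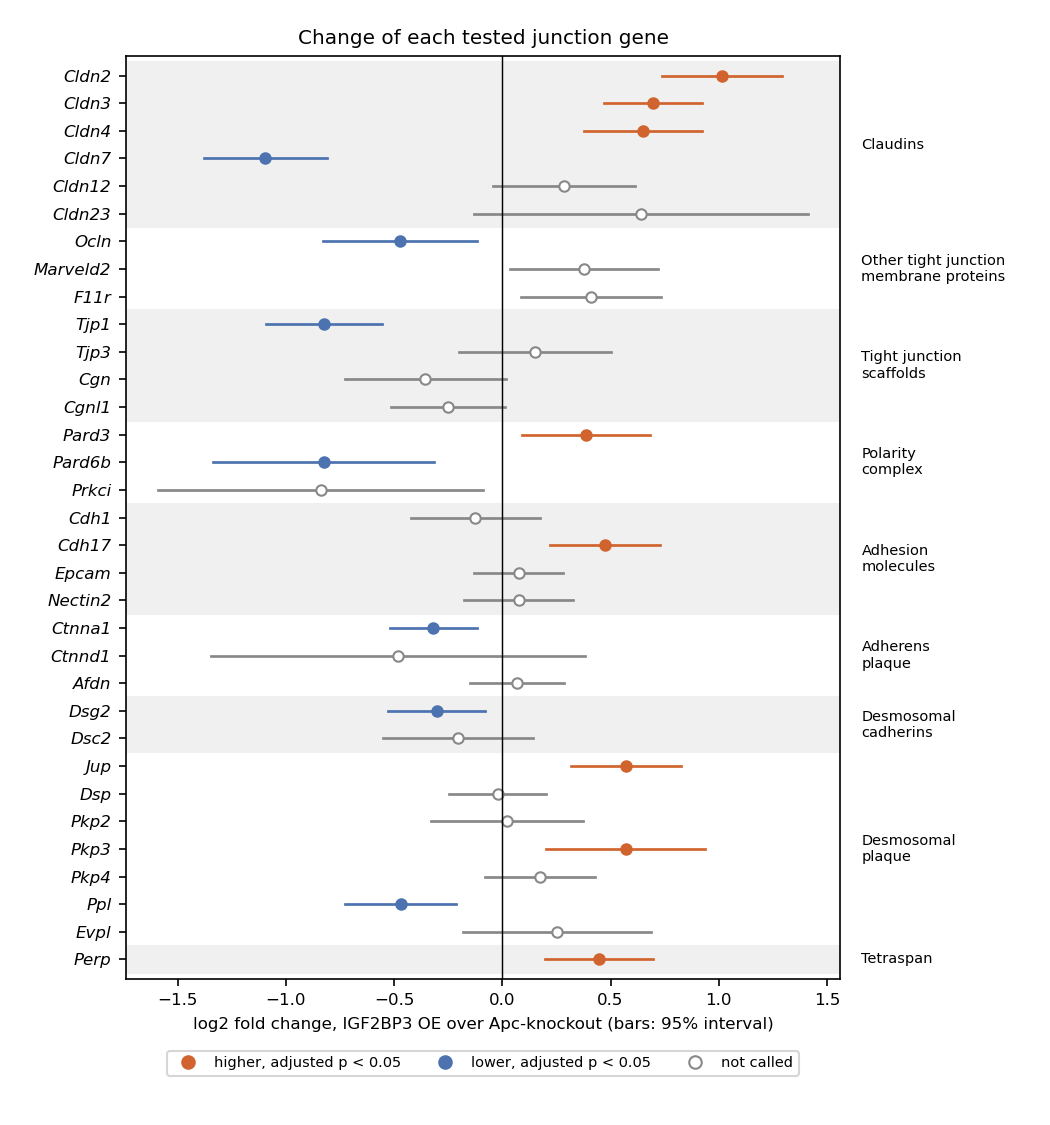
Log2 fold change of each tested junction gene, OE-labelled over control (x axis), with its 95% interval as a bar; genes are grouped by structure, and filled points passed an adjusted p below 0.05. Cldn2 has the highest value (1.01) and Cldn7 the lowest (-1.09).

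Only Cldn2, Cldn3, Cldn4, Cldn7 and Tjp1 passed in each of the 22 alternative settings run, with adjusted p up to 0.0357. The other 10 calls were each lost in at least 1 of those settings, and no called gene changed sign in any. Leaving out a control library lowered the number of junction genes called from 15 to 8 without replicate 1, 7 without replicate 2 and 8 without replicate 3, while the share called among all genes fell to 17.3%, 16.8% and 15.9%.

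Expression levels spanned a wide range. Because 3′ sequencing gives about 1 read position per transcript whatever its length, CPM can be compared between genes more directly than in full-length sequencing. Control means ran from 9.11 CPM for Cldn23 to 1398 CPM for Cdh1, with a median of 139 CPM over the 33 tested genes. Cdh1 was followed by Ctnna1 at 533 ± 21.7 CPM, F11r at 454 ± 23.4 CPM, Epcam at 432 ± 1.36 CPM and Cgnl1 at 383 ± 16.8 CPM (SD, n = 3). F11r and Epcam, neighbours in that order, had overlapping control ranges.

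**Figure D2:**
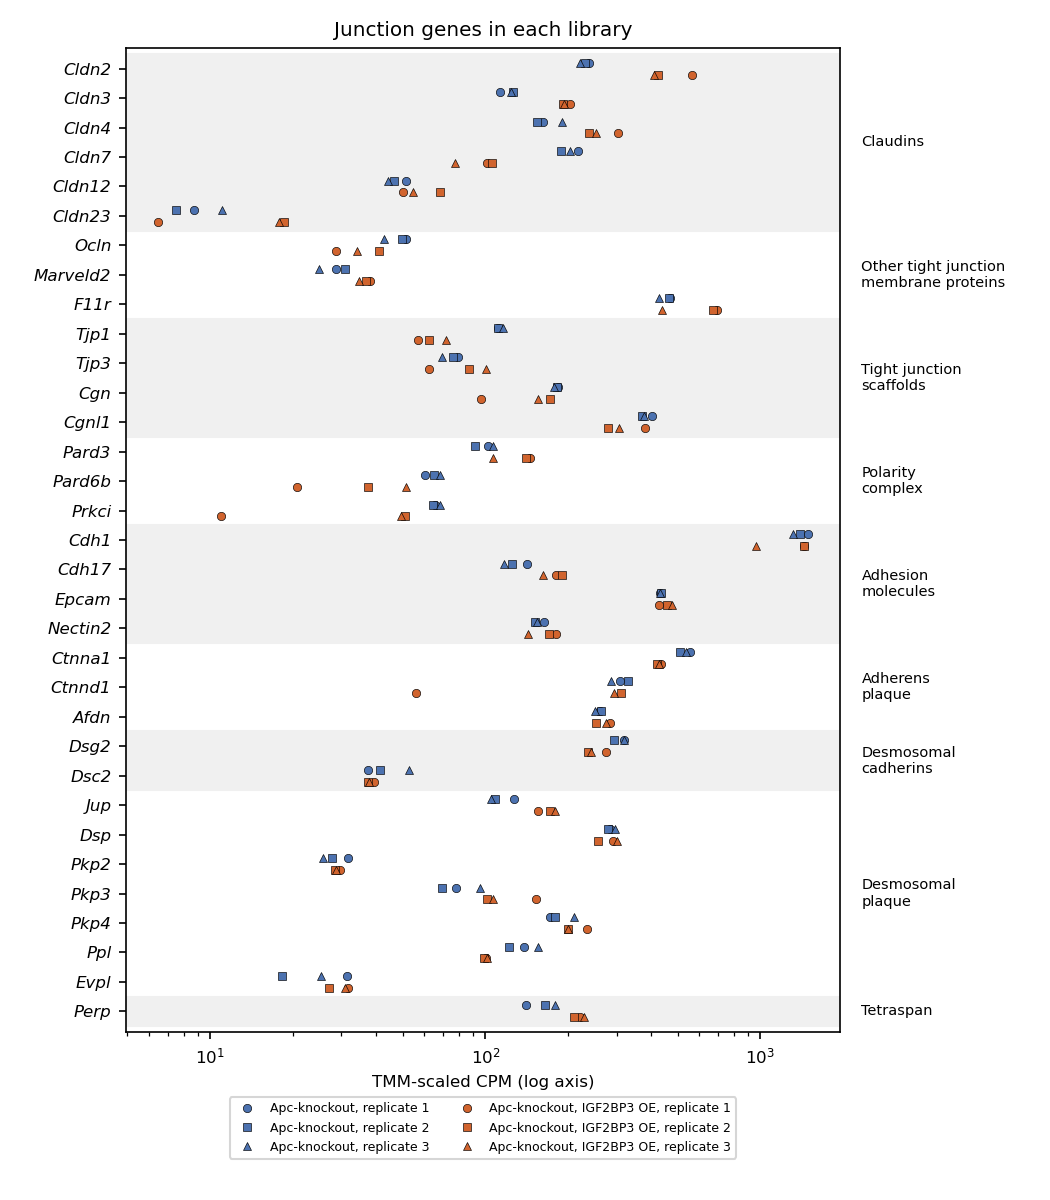
TMM-scaled CPM (log axis) of the 33 tested junction genes in each of the 6 libraries, blue for control and orange for OE-labelled, with 1 symbol per replicate number. Cdh1 lies highest and Cldn23 lowest, and the orange circles (OE-labelled replicate 1) of Ctnnd1 and Prkci lie far below every other library.

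Claudins gave the largest changes in both directions. Cldn2, which forms a paracellular channel for cations and water and is typical of crypts and leaky epithelia, rose 2.02-fold: it was counted at 238, 231 and 221 CPM in the controls and 562, 423 and 411 CPM in the OE-labelled libraries, given here and below by replicate number. Every OE-labelled value lay well above every control value. The log2 fold change was 1.01 (SE 0.13, adjusted p = 0.000226), and 0.80 without OE-labelled replicate 1, the highest library. Cldn3, a sealing claudin, had 113, 126 and 124 CPM in controls and 203, 191 and 194 CPM in OE-labelled libraries. Here the OE-labelled libraries lay close together and apart from the controls, with a log2 fold change of 0.70 (SE 0.10, adjusted p = 0.000634). Cldn4, another barrier claudin, whose gene lies 39280 bases from Cldn3 on chromosome 5, had 162, 154 and 189 CPM and 305, 238 and 252 CPM. These groups did not overlap either, and the log2 fold change was 0.65 (SE 0.13, adjusted p = 0.00263). With the GC offset, a correction for the GC content of transcripts, both rises were smaller: 0.43 for Cldn3 (adjusted p = 0.0158) and 0.42 for Cldn4 (adjusted p = 0.0357).

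Cldn7 went the other way. This claudin is found along the lateral membrane, where it binds EpCAM. It was counted at 217, 189 and 204 CPM in controls and 102, 106 and 77.8 CPM in OE-labelled libraries, a fall to below the lowest control value in all 3. The log2 fold change was -1.09 (SE 0.13, adjusted p = 0.000177), or 2.14-fold lower. Epcam itself was counted at 432, 434 and 431 CPM in controls and 429, 457 and 479 CPM in OE-labelled libraries. These ranges overlapped, and the 95% interval of its log2 fold change ran from -0.13 to 0.28.

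Promoters of these 4 claudin genes are shown because 3 rose and 1 fell and all 4 calls held in every setting. The sequences are from RefSeq (GRCm38.p6), run from 250 bases before to 50 bases after the annotated start and are written 5′ to 3′ on the gene's strand; capitals mark matches to the motifs named below.
Cldn2 (chrX:139800558-139800857, plus strand): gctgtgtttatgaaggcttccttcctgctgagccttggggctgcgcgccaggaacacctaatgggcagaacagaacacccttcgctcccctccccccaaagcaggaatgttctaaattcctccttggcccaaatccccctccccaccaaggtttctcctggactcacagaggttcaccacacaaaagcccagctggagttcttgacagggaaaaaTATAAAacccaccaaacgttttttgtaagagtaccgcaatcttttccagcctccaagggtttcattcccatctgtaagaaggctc
Cldn3 (chr5:134985964-134986263, plus strand): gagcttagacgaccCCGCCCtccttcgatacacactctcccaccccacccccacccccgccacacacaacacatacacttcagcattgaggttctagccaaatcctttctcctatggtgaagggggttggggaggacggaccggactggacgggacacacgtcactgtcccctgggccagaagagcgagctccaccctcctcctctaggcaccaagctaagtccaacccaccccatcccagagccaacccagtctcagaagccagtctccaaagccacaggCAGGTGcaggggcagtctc
Cldn4 (chr5:134946885-134947184, minus strand): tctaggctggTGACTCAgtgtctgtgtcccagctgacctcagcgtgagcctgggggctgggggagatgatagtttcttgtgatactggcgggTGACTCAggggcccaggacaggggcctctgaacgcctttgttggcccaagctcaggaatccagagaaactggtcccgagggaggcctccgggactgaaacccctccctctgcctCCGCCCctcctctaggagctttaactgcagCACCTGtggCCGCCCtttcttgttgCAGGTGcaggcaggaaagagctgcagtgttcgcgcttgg
Cldn7 (chr11:69964529-69964828, plus strand): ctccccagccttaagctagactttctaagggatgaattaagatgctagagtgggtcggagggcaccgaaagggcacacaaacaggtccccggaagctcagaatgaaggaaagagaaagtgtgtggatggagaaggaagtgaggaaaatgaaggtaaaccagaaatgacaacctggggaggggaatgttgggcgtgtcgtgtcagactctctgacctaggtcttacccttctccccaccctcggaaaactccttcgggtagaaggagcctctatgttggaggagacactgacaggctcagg

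Motifs were searched on both strands, and no matches overlapped in the windows shown. Cldn2 held a TATA box (TATAAA, in 13.6% of all 32851 promoters searched) that begins at -35 from the start. Cldn3 and Cldn4 each held the GC box (GGGCGG, 35.7% of promoters) and the E-box bound by SNAI and ZEB repressors (CACCTG, 20.2% of promoters). In Cldn4 the GC box occurred at -44 and -5, the E-box at -14 and 11, and the AP-1 site (TGANTCA, 7.81% of promoters) at -240 and -158. The letters of the MYC and MAX E-box (CACGTG, 7.15% of promoters), the CCAAT box (CCAAT, 37.4%) and the TCF and LEF site (CTTTGAT, 3.73%) were not in these 4 windows, and Cldn7 held no match to any of the 7 motifs. The percentages cover all 32851 promoters searched, without a choice of 1 start per gene. For the 23 junction genes with a promoter in the RefSeq table, the start nearest to the annotated gene start was taken. Of these 23, 18 held the GC box, 10 the SNAI and ZEB E-box and 8 the CCAAT box. The TATA box, the AP-1 site and the MYC and MAX E-box were each found in 3, and the TCF and LEF site in 0. These matches describe letters in the window, not binding.

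The lower-expressed claudins did not pass. Cldn12, a claudin without the usual PDZ-binding tail, had 51.6, 46.4 and 44.2 CPM in controls and 50.2, 68.4 and 54.5 CPM in OE-labelled libraries, which overlap, with a log2 fold change of 0.28 (SE 0.15, adjusted p = 0.175). Cldn23 had 19, 16 and 24 counts in controls and 16, 47 and 42 counts in OE-labelled libraries. Its replicates 2 and 3 lay above all controls and replicate 1 equalled the lowest control count, so that the log2 fold change of 0.64 (SE 0.36, adjusted p = 0.195) became 0.93 without that library (adjusted p = 0.00807). Cldn15, the sodium-pore claudin of the small intestine, was represented by 0, 0 and 1 counts in controls and 0, 0 and 0 counts in OE-labelled libraries, under the floor throughout.

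The shares of single claudins in the claudin total were compared as well. The 7 claudins summed to 780 ± 21.6 CPM in controls and to 1093 ± 119 CPM under the OE label (SD, n = 3). Cldn2 supplied 29.5% ± 1.47 of these counts in controls and 42.4% ± 2.94 under the OE label, while Cldn7 supplied 26.1% ± 1.25 and 8.71% ± 1.26 (SD, n = 3). Cldn7 ranked just behind Cldn2 in the controls, and behind Cldn2, Cldn3 and Cldn4 in the OE-labelled libraries. Shares of Cldn3 (15.5% ± 1.19 against 18% ± 1.36) and Cldn4 (21.6% ± 1.97 against 24.2% ± 1.24) moved less (SD, n = 3). These shares add to a fixed total and are given as a description, without a test.

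**Figure D3:**
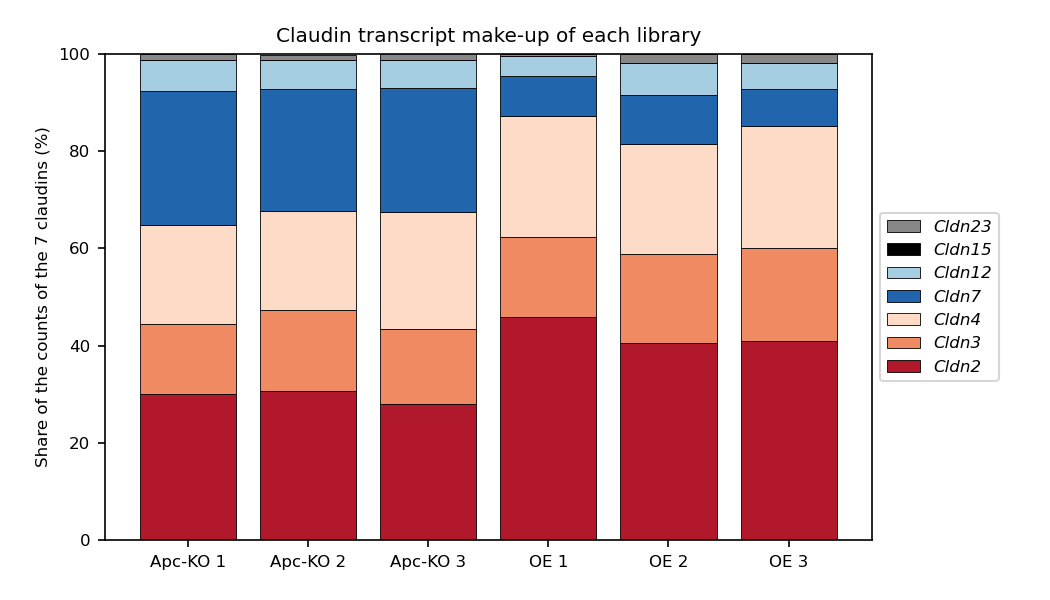
Share of the summed counts of 7 claudins (y axis, percent) taken by each claudin in each library (x axis; Apc-KO for control, OE for OE-labelled). The Cldn2 block covers 27.9% to 30.6% of each control bar and 40.5% to 45.8% of each OE-labelled bar, and the Cldn7 block shrinks from at least 25% to at most 10.1%.

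Of the other tight junction membrane genes, only Ocln passed. Ocln, which encodes the strand protein occludin, had 51.6, 49.7 and 42.9 CPM in controls and 28.8, 40.9 and 34.2 CPM in OE-labelled libraries. The groups lay apart by a small gap, with a log2 fold change of -0.47 (SE 0.16, adjusted p = 0.0469). That call was lost in 12 of 22 settings, among them the GC offset (-0.25, adjusted p = 0.296) and the fit without OE-labelled replicate 1 (adjusted p = 0.0546). Marveld2, which encodes tricellulin of tricellular contacts, had 28.6, 31.0 and 24.9 CPM and 38.1, 37.0 and 34.7 CPM. The ranges did not overlap, yet the log2 fold change of 0.38 (SE 0.16, adjusted p = 0.088) missed the threshold. F11r, the gene of the adhesion molecule JAM-A, had 468, 466 and 427 CPM in controls and 697, 671 and 439 CPM in OE-labelled libraries. Replicates 1 and 2 exceeded all controls and replicate 3 lay among them; the log2 fold change was 0.41 (SE 0.15, adjusted p = 0.0559), 0.60 without OE-labelled replicate 3 (adjusted p = 0.000333) and 0.24 without replicate 1.

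Among the scaffolds, Tjp1 fell. Tjp1 encodes ZO-1, the scaffold that binds claudin tails and actin (ENSMUSG00000030516, minus strand of chromosome 7, 65296165 to 65527781 in GRCm38). It had 111, 111 and 116 CPM in controls and 56.7, 62.5 and 71.9 CPM in OE-labelled libraries. The controls lay close together and every OE-labelled value lay far below them, at a log2 fold change of -0.82 (SE 0.12, adjusted p = 0.000623). Tjp1 overlaps 3 unnamed gene models in GENCODE, 2 of them on its own strand, so that its counts could include or lose reads there. Of the other tested junction genes, Pard3, Prkci and Ctnnd1 also overlap a gene model on their own strand. Tjp3, for the related ZO-3, had 79.3, 76.0 and 69.6 CPM and 62.4, 87.3 and 100.2 CPM, with overlap and a log2 fold change of 0.15 (SE 0.16, adjusted p = 0.513). ZO-1 transcripts made up 60.1% ± 2.12 of this pair in controls and 43.7% ± 3.39 under the OE label (SD, n = 3), so that Tjp3 was the more abundant of the pair in every OE-labelled library and the less abundant in every control.

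The cingulins, which connect ZO proteins to myosin and microtubules, did not pass. Cgn had 183, 182 and 178 CPM in controls and 96.4, 172 and 156 CPM in OE-labelled libraries; replicate 1 was far lower than the other OE-labelled libraries, all of which lay under the controls. Its log2 fold change was -0.35 (SE 0.17, adjusted p = 0.137), -0.20 without replicate 1 and -0.55 with the GC offset, where it was called (adjusted p = 0.031). Cgnl1, for paracingulin, had 402, 370.1 and 378 CPM and 381, 279 and 306 CPM. Here replicate 1 was the OE-labelled library within the control range, and the log2 fold change of -0.25 (SE 0.12, adjusted p = 0.138) became -0.45 without it (adjusted p = 0.00112).

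The apical polarity complex split. Pard6b, the adaptor that joins PAR3 and atypical protein kinase C, had 60.4, 65.2 and 68.2 CPM in controls and 20.7, 37.4 and 51.6 CPM in OE-labelled libraries. All OE-labelled values lay below the controls but differed widely among themselves. The log2 fold change was -0.82 (SE 0.24, adjusted p = 0.0202), and -0.60 without replicate 1 (adjusted p = 0.00531). Its call was lost in 4 of 22 settings (adjusted p up to 0.0814): without control replicate 1, 2 or 3 and at the threshold of 0.01. Prkci, the kinase of this complex, had 65.9, 64.7 and 68.7 CPM in controls and 10.9, 51.1 and 49.5 CPM in OE-labelled libraries. Replicate 1 lay 4.52-fold below the next OE-labelled library, and replicates 2 and 3 lay below every control. With all libraries its log2 fold change was -0.84 (SE 0.35, adjusted p = 0.087); without replicate 1 it shrank to -0.46 and passed (adjusted p = 0.0128). Pard3, the scaffold that recruits the complex to tight junctions, had 102, 92.0 and 106 CPM and 145, 140.4 and 106 CPM. Its lowest OE-labelled value touched the highest control value, and the rise of 0.39 (SE 0.14, adjusted p = 0.0484) was lost in 15 of 22 settings, DESeq2's test (adjusted p = 0.147) and the fit without OE-labelled replicate 1 (adjusted p = 0.142) among them.

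**Figure D4:**
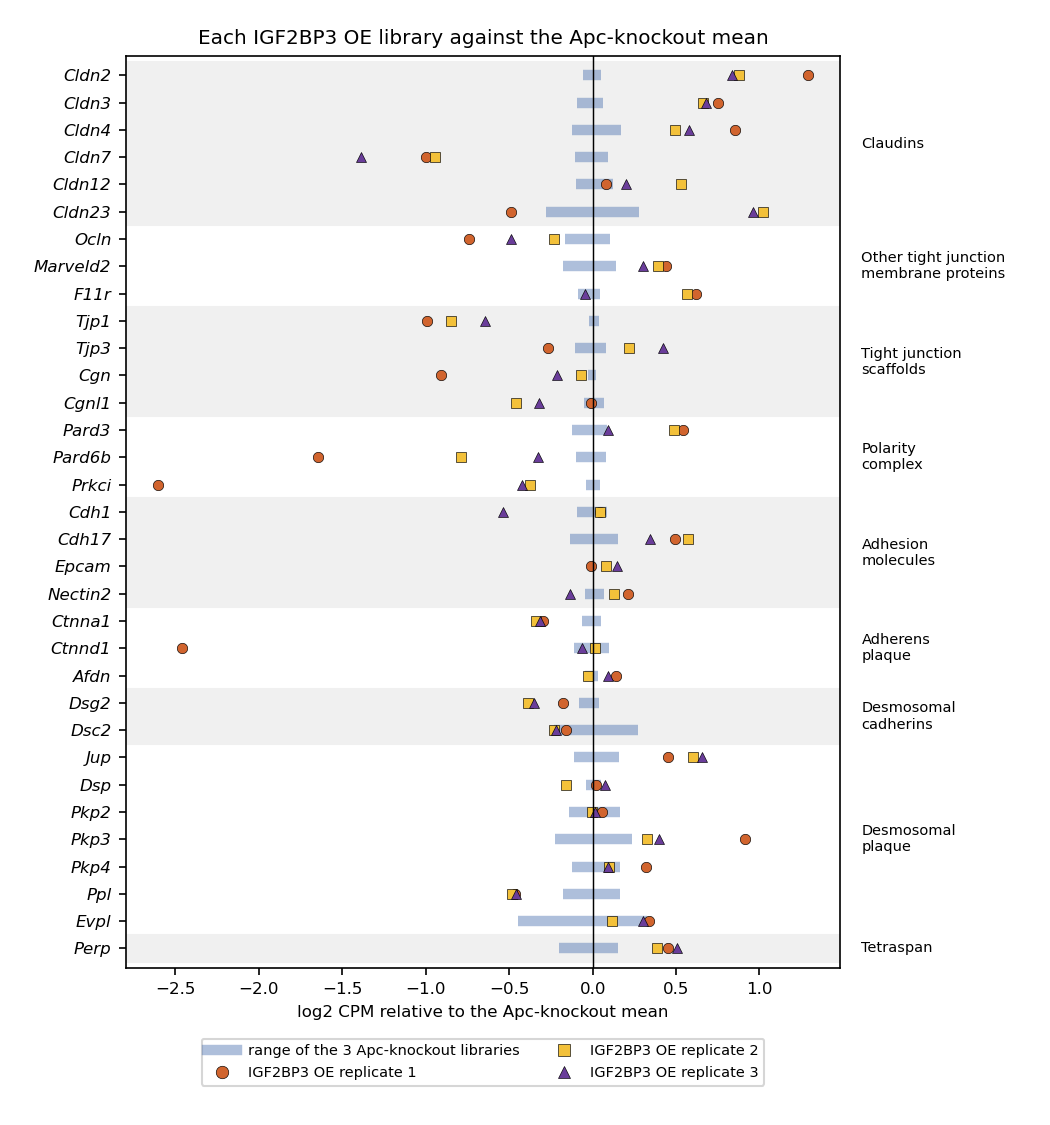
Log2 CPM of each OE-labelled library relative to the control mean (x axis) for the 33 tested genes; symbols stand for replicates and the blue bars for the range of the 3 control libraries. Replicate 1 lies at -2.6 for Prkci and -2.46 for Ctnnd1, while replicates 2 and 3 lie between -0.425 and 0.014 for both genes.

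Of the 4 adhesion molecules, Cdh17 passed and Cdh1, Epcam and Nectin2 did not. Cdh1, the gene of E-cadherin and the most abundant of the 34 transcripts in the controls, had 1484, 1397 and 1313 CPM in controls and 1439, 1443 and 964 CPM in OE-labelled libraries. Replicates 1 and 2 lay within the control range and replicate 3 below it. Its log2 fold change was -0.12 (SE 0.14, adjusted p = 0.528), with a 95% interval of -0.42 to 0.17. Cdh17, the intestinal LI-cadherin that mediates adhesion without catenins, had 142, 125 and 117 CPM in controls and 180.3, 189.9 and 162 CPM in OE-labelled libraries. These did not overlap, and the log2 fold change was 0.47 (SE 0.12, adjusted p = 0.00994). The call was lost without control replicate 2, control replicate 3 or OE-labelled replicate 2 (adjusted p up to 0.0723). Nectin2, an immunoglobulin-type adhesion molecule anchored by afadin, had 164, 152 and 154 CPM and 181, 171 and 142 CPM, with replicate 3 below and replicates 1 and 2 above all controls. The 95% interval of its log2 fold change ran from -0.18 to 0.33.

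Of the adherens plaque genes, Ctnna1 passed. It encodes alpha-catenin, the link from the cadherin complex to actin, and had 553, 510.0 and 536 CPM in controls and 434, 420.4 and 428 CPM in OE-labelled libraries. All OE-labelled libraries lay close together and below the controls, a small fall with a log2 fold change of -0.32 (SE 0.093, adjusted p = 0.0225). This fall lost its call in 5 of 22 settings (adjusted p up to 0.111), among them the fits without control replicate 1, 2 or 3. Ctnnd1, for p120-catenin, which holds cadherins at the surface, had 308, 329.8 and 285 CPM in controls and 55.9, 311 and 294 CPM in OE-labelled libraries. Replicate 1 lay 5.26-fold below the next OE-labelled library, while replicates 2 and 3 lay in the control range. Its log2 fold change of -0.48 (SE 0.40, adjusted p = 0.388) became -0.079 without replicate 1 (adjusted p = 0.56). Ctnnd1 is the only junction gene with fractional counts in the table and overlaps 1 gene model (Gm28635) on its own strand; the part of either in the low value was not tested. Afdn, for afadin, had 260.4, 263 and 249.7 CPM and 284, 252 and 274 CPM, which overlap, and a 95% interval of -0.15 to 0.28.

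Of the desmosomal cadherins, Dsg2 passed and Dsc2 did not. Dsg2, desmoglein 2 of simple epithelia, had 319, 293 and 319 CPM in controls and 274, 237 and 243 CPM in OE-labelled libraries. The groups did not overlap and the log2 fold change was -0.30 (SE 0.10, adjusted p = 0.0439), a call lost in 12 of 22 settings, among them equal depth (adjusted p = 0.0752) and the GC offset (adjusted p = 0.205). Its partner Dsc2, desmocollin 2, had 37.3, 41.3 and 53.0 CPM and 39.3, 37.4 and 37.6 CPM, with overlap and a log2 fold change of -0.20 (SE 0.16, adjusted p = 0.362).

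In the desmosomal plaque, Jup and Pkp3 rose and Ppl fell. Jup encodes plakoglobin, which serves desmosomes and adherens junctions, and had 127, 109 and 105 CPM in controls and 156, 172 and 179 CPM in OE-labelled libraries. The groups lay apart, with a log2 fold change of 0.57 (SE 0.12, adjusted p = 0.00354); the GC offset gave 0.33 and ended the call (adjusted p = 0.0729). Pkp3, plakophilin 3, had 78.3, 69.4 and 95.4 CPM in controls and 153, 102 and 107 CPM in OE-labelled libraries. Replicate 1 was the highest by far. The log2 fold change of 0.57 (SE 0.17, adjusted p = 0.0245) was 0.31 without it and no longer passed (adjusted p = 0.0804). In all, the Pkp3 call was lost in 8 of 22 settings. Ppl, for periplakin, a linker between membrane and keratins, had 138, 122 and 156 CPM in controls and 100.5, 99.1 and 101 CPM in OE-labelled libraries. The OE-labelled values nearly coincided under the lowest control, with a log2 fold change of -0.47 (SE 0.12, adjusted p = 0.0112) and, with the length offset, -0.31 (adjusted p = 0.0825).

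The remaining plaque genes did not pass. Dsp, desmoplakin, the main keratin anchor, had 283, 279 and 297 CPM in controls and 290.1, 256 and 301 CPM in OE-labelled libraries, and the 95% interval of its log2 fold change ran from -0.24 to 0.20. Pkp2 had 31.8, 27.7 and 25.8 CPM and 29.6, 28.3 and 28.8 CPM, with a 95% interval of -0.33 to 0.37. Pkp4, the most abundant of these plakophilins, had 172, 179 and 210.1 CPM and 233, 200.5 and 199 CPM. Evpl, for envoplakin, the partner of periplakin, had 31.3, 18.3 and 25.3 CPM and 31.6, 27.1 and 30.9 CPM, and its log2 fold change was 0.25 (SE 0.20, adjusted p = 0.363). In all 4 genes the groups overlapped. Perp, a tetraspan desmosome protein known as a p53 target, had 141, 165 and 179 CPM in controls and 221, 211 and 229 CPM in OE-labelled libraries. It rose in all 3 with a log2 fold change of 0.45 (SE 0.12, adjusted p = 0.0121). The call of Perp was lost in 5 of 22 settings, among them the length offset (adjusted p = 0.0996) and the fits without control replicate 1 or 2.

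Composition and length of the transcripts moved with these changes across the transcriptome. Over 10268 protein-coding genes, log2 fold change had a Spearman rho of 0.37 with GC content and -0.32 with the length of the longest transcript, as a description over genes of the same 6 libraries. Tested junction genes had a median GC content of 51.8% and a median length of 3733 bases, beside 49.7% and 3468 bases for those genes. With the GC offset 13 junction genes were called (beside 23% of all genes in that fit), 10 of them shared with the 15: Jup, Pkp3, Ocln, Pard3 and Dsg2 dropped out, and Cgn, Cgnl1 and Cldn12 came in. The length offset, added after the data were seen, left 10 of the 15 (beside 24.2% of all genes).

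Other genes of the same structures were compared from lists written from general knowledge, with earlier results of these data known. The part of that choice in the shares called was not tested. Of 86 listed genes, 58 were tested, 8 of them higher and 12 lower (34.5%, beside 29.2% of all genes tested), with a median log2 fold change of 0.064. Among 23 further tight junction and polarity genes tested, 3 were higher and 7 lower (43.5%). Lsr, the receptor that brings tricellulin to tricellular contacts, had 292, 268 and 298 CPM in controls and 484, 409.7 and 422 CPM in OE-labelled libraries and rose by 0.62 (SE 0.10, adjusted p = 0.00123) on the log2 scale. Rab13, a trafficking GTPase of junctions, rose by 0.89 (SE 0.22, adjusted p = 0.0105), and Crb3, an apical Crumbs protein, by 0.57 (SE 0.17, adjusted p = 0.0253). Of the scaffold genes, Magi3 fell with a log2 fold change of -0.60 (SE 0.14, adjusted p = 0.00695) and Magi1 with -0.54 (SE 0.14, adjusted p = 0.0127). Pals1, of the Crumbs complex, fell with a log2 fold change of -0.45 (SE 0.13, adjusted p = 0.021). Cxadr, a virus receptor and adhesion molecule of tight junctions, had a log2 fold change of -0.53 (SE 0.13, adjusted p = 0.00909). Of these, Lsr and Magi3 passed in all 22 alternative settings, although the GC offset lowered Lsr to 0.37 (adjusted p = 0.0315). Magi3 overlaps 11 gene models on its own strand, so that its counts could include or lose reads there. The GC offset ended the calls of Pals1 (-0.17, adjusted p = 0.44), Crb3 (0.33, adjusted p = 0.186) and Cxadr (-0.31, adjusted p = 0.0806), which were lost in 8, 9 and 3 settings. Magi1 and Rab13 were each lost in 3 settings, Magi1 among them with the length offset (-0.32, adjusted p = 0.1) and without control replicate 2 (adjusted p = 0.079), and Rab13 without control replicate 3 (adjusted p = 0.0609).

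Among 12 further adherens junction genes tested, 2 were higher and 1 lower (25%). Ctnnb1, for beta-catenin, which binds E-cadherin and transmits WNT signals, had 1504, 1528 and 1554 CPM in controls and 2118, 2241 and 2188 CPM in OE-labelled libraries. It was more abundant than Cdh1 in every library and rose in all 3 OE-labelled ones, with a log2 fold change of 0.51 (SE 0.085, adjusted p = 0.001). Ajuba, a LIM protein of the cadherin complex, rose by 0.68 (SE 0.17, adjusted p = 0.00892). Its rise was 0.42 without OE-labelled replicate 1 (adjusted p = 0.016), and the call was lost with the GC offset (0.43, adjusted p = 0.0714), without control replicate 1 (adjusted p = 0.057) and without both libraries numbered 1 (0.36, adjusted p = 0.0969). Plekha7, which ties p120-catenin to microtubules, had 30.9, 27.2 and 32.7 CPM and 15.0, 11.4 and 25.4 CPM and a log2 fold change of -0.82 (SE 0.25, adjusted p = 0.0283). That call was lost in 7 of 22 settings: without control replicate 1, 2 or 3 (adjusted p = 0.0873, 0.0599 and 0.107), without OE-labelled replicate 2 (0.0859), without both libraries numbered 1 (0.0763), with the length offset (0.0552) and at the threshold of 0.01. None of the 2 further desmosome genes tested, Pkp1 and Dsg3, passed (edgeR; adjusted p = 0.123 and 0.783).

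Of the gap junction genes, Gjb1 rose and Gja1 fell. Gjb1, connexin 32, had 39.2, 40.4 and 38.2 CPM in controls and 105, 90.8 and 79.1 CPM in OE-labelled libraries, a log2 fold change of 1.22 (SE 0.14, adjusted p = 0.000144). Gja1, connexin 43, had 53.5, 61.9 and 53.4 CPM in controls and 17.0, 25.9 and 22.0 CPM in OE-labelled libraries, and its log2 fold change was -1.37 (SE 0.17, adjusted p = 0.000241). Control and OE-labelled ranges lay apart in both genes.

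Surface proteases and regulators of epithelial character also differed in part. Of 6 genes of surface proteases and their inhibitors, Adam10, whose product sheds E-cadherin, had 158, 165 and 173 CPM in controls and 91.2, 108 and 93.4 CPM in OE-labelled libraries. Its log2 fold change was -0.76 (SE 0.11, adjusted p = 0.00061), while the membrane protease gene Prss8 rose by 0.60 (SE 0.17, adjusted p = 0.0192). The call of Prss8 was lost in 8 of 22 settings, among them DESeq2's test (adjusted p = 0.0618), the GC offset (0.38, adjusted p = 0.121), the length offset (adjusted p = 0.0785) and the fits without control replicate 2 or 3 (adjusted p = 0.0949 and 0.0772) or OE-labelled replicate 2 (adjusted p = 0.107). Of 11 regulators tested, Esrp1, an epithelial splicing regulator, rose by 0.35 (SE 0.10, adjusted p = 0.0239), a call lost in 9 of 22 settings, among them DESeq2's test (adjusted p = 0.109) and the fits without control replicate 1, 2 or 3 (adjusted p = 0.0622, 0.109 and 0.117) or OE-labelled replicate 2 (adjusted p = 0.0843). Ehf, an epithelial ETS factor, had 498, 537 and 508 CPM in controls and 359.8, 311 and 328 CPM in OE-labelled libraries, and Grhl2, a grainyhead factor of junction genes, had 41.5, 36.1 and 40.5 CPM and 20.7, 26.7 and 24.9 CPM. Both lay lower in every OE-labelled library, with log2 fold changes of -0.63 (SE 0.10, adjusted p = 0.000803) and -0.71 (SE 0.17, adjusted p = 0.00722). With the GC offset Ehf was -0.40 (adjusted p = 0.027). The repressor genes Snai1, Snai2, Zeb1, Zeb2, Twist1 and Twist2 did not pass the count filter, with at most 4 counts in any library.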

How the data were processed

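RNA of 6 libraries was sequenced with a QuantSeq 3′ forward kit, per the labels' protocols. STAR, HTSeq and the builds mm10 and GRCm38 are named in the submitters' processing notes, without options for strand or multi-mapping reads. The deposited table holds estimated counts, not normalized by the authors, for 52249 genes; 2843 values (3.09% of those above 0) were fractional and were rounded. Sample titles gave the groups, and library names gave the columns. OE-labelled and control libraries were compared in edgeR 4.0.16 (R 4.3.3; quasi-likelihood F-test) after filterByExpr and TMM scaling, without covariates; p-values were adjusted by Benjamini-Hochberg over 10687 genes and called below 0.05. A standard error is the estimate divided by the root of the F statistic. The fit was tested on simulated counts with the same spread in both groups, unlike the unequal spread of these libraries. CPM are TMM-scaled. Gene positions, overlaps, GC content and length are from GENCODE M21 (GRCm38). Alternatives were DESeq2 1.42.0, limma-voom (limma 3.58.1), other scalings and filters, equal depth, offsets (loess, span 0.5), the replicate number as a block, a threshold of 0.01 and single libraries left out. The length offset and leaving out both libraries numbered 1 were added after the data were seen. The members and lists were chosen with earlier results of these data known. All members are named; of the other lists, up to 5 called genes in each direction by smallest p, except that some genes are not reported here. Counts carry no stated molecular identifiers, so the floor of 3 counts (1.18 to 1.41 CPM) covers counting error only.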

Additional observations from a re-analysis of the deposited data

How the results depend on the processing

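Of 1122 values from 22 alternatives for 51 junction and related genes, 941 kept direction and call, 128 no longer passed, 25 passed newly and 28 changed sign. At an adjusted p below 0.01, 1578 genes (14.8%) passed, among them 7 junction genes (5 higher, 2 lower) and, of the other lists, 4 higher and 6 lower. Leaving out each library in turn gave 1748 to 3532 genes (15.9% to 32.6% of all genes tested in the same fit). In these fits 7 to 15 junction genes passed (4 to 9 higher, 2 to 8 lower) and, of the other lists, 4 to 12 higher and 6 to 13 lower. Without OE-labelled replicate 1, 2 or 3, 15, 13 and 15 junction genes passed, beside 30.8%, 21.2% and 32.6% of all genes. The lowest totals came from leaving out a control. The length offset gave 4 lower junction genes, in a fit that called 24.2% of all genes in either direction. Of the other lists, 5 genes were higher with DESeq2's test and 5 without both libraries numbered 1. These 2 fits called 19.6% and 22.2% of all genes in either direction. The cause of these shifts was not tested, apart from the stricter threshold.

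Signs changed only in genes that did not pass. Pkp2 became -0.02 with DESeq2 size factors and with DESeq2's test, -0.011 without a count filter, -0.036 without mitochondrial genes and CT010467.1 and -0.043 with the length offset, and lay in -0.05 to 0.108 over the leave-one-out fits. Dsp became 0.029 with library totals and 0.246 with the length offset (-0.096 to 0.017 in leave-one-out fits). With the GC offset, Tjp3 became -0.108, Epcam -0.068, Nectin2 -0.169, Dsc2 0.015 and Evpl -0.008; with the replicate block and GC offset, Tjp3 became -0.129, Epcam -0.069, Nectin2 -0.173 and Dsc2 0.02. With the length offset, Epcam became -0.072 and Nectin2 -0.005. Without both libraries numbered 1, Nectin2 and Pkp4 became -0.017 and Afdn -0.016. Leaving out single libraries gave -0.052 to 0.172 for Nectin2, -0.025 to 0.086 for Afdn and -0.27 to 0.048 for Cdh1.

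With the replicate block 3112 genes passed (29.1%; 2958 shared), among them 16 junction genes, 14 of them shared: Pard3 dropped out (adjusted p = 0.0559), and F11r (0.0326) and Prkci (0.0305) came in; 8 were higher and 8 lower, and 8 and 12 in the other lists. Deviations of equally numbered libraries correlated at 0.096, 0.018 and 0.067, and those of unequally numbered libraries at -0.108 to 0.042. With 3 libraries per group these values cannot show whether equal numbers share a culture, which the labels do not say. With the block and GC offset 13 junction genes passed (beside 25.3% of all genes), 9 of them shared. Cldn15 and 28 of the 86 other listed genes did not pass the count filter, and the part of sequencing depth in this was not tested.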

Other observations

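Spint2 encodes a surface inhibitor of the protease matriptase, which cleaves EpCAM and releases it from Cldn7. It was chosen after its values were seen. It had 128, 163 and 165 CPM in controls and 23.5, 91.2 and 265 CPM in OE-labelled libraries, so that the OE-labelled libraries lay on both sides of the control range. No group difference passed (log2 fold change -0.27 (SE 0.51, adjusted p = 0.726)). Its relative Spint1 had 109, 114 and 102 CPM and 143, 139 and 111 CPM, and St14, for matriptase, had 95.4, 95.2 and 87.1 CPM and 88.7, 102 and 91.3 CPM, both with overlap between groups.

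In the transcription factor list, Klf5, an abundant factor of crypt cells, had 1185, 1188 and 1168 CPM in controls and 1142, 1248 and 1315 CPM in OE-labelled libraries, with a 95% interval of its log2 fold change of -0.13 to 0.26. Klf4, a factor of differentiated intestinal cells, had 150.2, 141 and 161 CPM and 194, 186 and 171 CPM; the ranges did not overlap, and the log2 fold change of 0.28 (SE 0.11, adjusted p = 0.0651) missed the threshold. Hnf4a had 77.4, 74.6 and 71.0 CPM and 62.8, 68.0 and 66.4 CPM and did not pass either (adjusted p = 0.282).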
